A study of Mus musculus with 33 samples.

Results

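The 36 genes described here are G1/S and DNA replication genes. Their list covers 9 genes that license replication origins (Orc1, Cdc6, Cdt1 and Mcm2 to Mcm7), 5 that activate the helicase (Mcm10, Cdc45, Gins1, Gins2 and Gins3), 5 of the polymerases and primase (Pola1, Prim1, Pold1, Pole and Pole2) and 7 of the clamp, its loader, strand maturation and single-strand binding (Pcna, Rfc3, Rfc4, Rfc5, Fen1, Lig1 and Rpa2). It also covers 4 genes of nucleotide supply (Rrm1, Rrm2, Tyms and Tk1), 3 E2F factors (E2f1, E2f2 and E2f8) and 3 genes of chromatin assembly and maintenance (Uhrf1, Chaf1a and Chaf1b). Members were taken by gene symbol. Each symbol matched 1 of the 54532 rows of the deposited count table, and all 36 passed the filter on low counts in each of the 6 comparisons.

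RNA was sequenced from 33 mouse mammary tumours on the FVB background, of which 32 are used here. In 1 treated set, whose titles end in _7, 4 tumours (M20_7) came from mice given RP-6306 at 20 mg/kg and 3 tumours (VEH_7) from mice given vehicle. The other treated set has no suffix and holds 11 RP-6306 tumours at the same dose (MYT) and 4 vehicle tumours (VEH). The last 10 libraries, 5 with SPON and 5 with WT in their titles, had no treatment. RP-6306 inhibits PKMYT1, a kinase that holds CDK1 inactive by phosphorylation until mitosis. The growth protocol, which is the same for every sample, speaks of tumours transplanted into mice, and the dosing is given per day in the protocol and as bid in the treatment field. The treatment period of each group, the meaning of the suffix, the tumour lines and hosts, and how SPON and WT map onto the cyclin E and PyMT tumours of the design text are not given in the sources used here. The sample whose title says vehicle and whose treatment field says RP-6306 was left out. Whether each tumour of a group grew in its own mouse is not stated, and the p-values therefore rest on variation among these libraries, part of which may be technical.

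Before S phase, the origin recognition complex with CDC6 and CDT1 loads the MCM2 to MCM7 ring onto DNA as an inactive helicase. CDC45 and the GINS complex then turn the ring into an active helicase, and primase, the replicative polymerases and the PCNA clamp follow it. In mammals many of these genes are transcribed together late in G1, when E2F1 to E2F3, bound to a DP partner, replace repressing E2F and RB-family complexes. E2F8, itself made during the cell cycle, is a repressor of E2F targets.

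The letters that E2F proteins bind could be looked for in the promoters of 32 of the 36 members, for which RefSeq gives a window of 300 bases, 250 before the gene start and 50 after it. The E2F motif was searched as TTTCCCGC, TTTCGCGC, TTTGCCGC or TTTGGCGC on both strands. It was found for 15 of 32 members (46.9%), against 704 of 27025 genes with a RefSeq window (2.6%). Among other replication genes outside the list it was found for 16 of 45 (35.6%), and among genes of G2 and mitosis for 1 of 18 (5.56%). CCAAT, a box read by the factor NF-Y, stood in a window of 20 of 32 members (62.5%), against 41.1% of all genes with a window. It stood in a window of 26 of 45 other replication genes (57.8%) and of 16 of 18 genes of G2 and mitosis (88.9%). The CHR motif TTTGAA, typical of genes of G2 and mitosis, was found for 6 of 32 members (18.8%) and for 13 of 18 genes of G2 and mitosis (72.2%), against 20.2% of all genes with a window. The 32 members have 38 windows, since 5 members have several starts, and a gene was counted when any of its windows held the motif. In 29 of the 38 windows the first 30 bases after the start lie in a GENCODE transcript of the gene. A match describes letters and is not a bound site.

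The 250 bases before the start of 4 members are shown 5′ to 3′ on the strand of the gene, from RefSeq on GRCm38.p6, with E2F and CCAAT matches in capitals (CCAAT reads ATTGG on the opposite strand). The RefSeq start matches the GENCODE start of the gene for Pola1 and E2f8, and lies upstream of it for Mcm6 and Mcm5. Mcm6 and Mcm5, which code for ring subunits, have the most E2F letters and show matches of opposite strands that overlap. Pola1 codes for the catalytic subunit of polymerase alpha and has a single E2F match. E2f8 is shown because its RNA went the other way from the other members between MYT and VEH tumours. No E2F match of these letters stands in its window, which says nothing of whether an E2F binds there. The lack of a match is not particular to E2f8, since only 15 of 32 members had one. Rfc4, Chaf1b and Mcm10 had none either, and they rose in MYT against VEH, with log2 fold changes of 1.80, 1.67 and 1.46.
Mcm6, chr1:128359706-128359955, minus strand: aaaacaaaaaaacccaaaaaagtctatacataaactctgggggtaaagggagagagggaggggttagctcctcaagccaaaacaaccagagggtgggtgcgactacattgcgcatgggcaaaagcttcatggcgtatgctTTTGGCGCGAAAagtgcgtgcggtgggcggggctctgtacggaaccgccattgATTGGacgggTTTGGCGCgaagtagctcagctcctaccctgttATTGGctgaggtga
Mcm5, chr8:75109259-75109508, plus strand: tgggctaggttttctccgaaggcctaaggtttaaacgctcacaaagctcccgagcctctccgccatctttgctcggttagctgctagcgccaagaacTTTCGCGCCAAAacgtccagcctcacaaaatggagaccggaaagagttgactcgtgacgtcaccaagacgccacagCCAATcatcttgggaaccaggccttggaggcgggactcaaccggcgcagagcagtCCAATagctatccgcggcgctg
Pola1, chrX:93632156-93632405, minus strand: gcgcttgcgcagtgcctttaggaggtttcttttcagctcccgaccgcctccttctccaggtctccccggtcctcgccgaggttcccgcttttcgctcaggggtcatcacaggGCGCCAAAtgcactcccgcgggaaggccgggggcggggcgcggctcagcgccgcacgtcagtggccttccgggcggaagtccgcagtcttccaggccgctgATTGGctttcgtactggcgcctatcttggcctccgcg
E2f8, chr7:48881597-48881846, minus strand: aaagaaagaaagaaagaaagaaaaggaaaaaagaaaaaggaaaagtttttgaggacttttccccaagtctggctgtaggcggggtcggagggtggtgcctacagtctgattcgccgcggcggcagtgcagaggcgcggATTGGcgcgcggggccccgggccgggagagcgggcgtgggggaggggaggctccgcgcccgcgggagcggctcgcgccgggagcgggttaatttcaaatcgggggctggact

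Total counts ran from 26517748 to 34637096 in the 7 libraries titled _7 and from 13701115 to 20105407 in the 25 others, so depth and set cannot be told apart in a comparison across them. The label of mammary tumour was checked with 14 luminal epithelial markers such as Epcam and Krt8, whose summed level in CPM (counts scaled to library size with TMM factors) was 4407 to 10574 CPM in MYT, 5339 to 11065 CPM in SPON and 4231 to 5791 CPM in WT tumours. It was 628 to 1860 CPM in VEH tumours, and only 44.1 to 88.7 CPM in M20_7 and 37.7 to 113 CPM in VEH_7 tumours, with no marker at 0 in any group. The summed level of 14 mesenchymal markers was 29143 to 41242 CPM in M20_7, 31192 to 53435 CPM in VEH_7 and 25204 to 41449 CPM in VEH tumours, and 924 to 7880 CPM in the other groups. Within groups, some libraries stood apart in the replication genes: VEH_7 replicate 2 was the lowest of its group for 35 of 36 members, M20_7 replicate 1 for 33, and WT replicate 5 was the highest of its group for 26. VEH replicate 4 was the highest of its group for 23.

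Across the 6 groups, the replication genes were lowest in WT and VEH tumours and highest in SPON and MYT tumours. Of the 36 members, 17 had their highest group mean in SPON, 14 in MYT, 4 in M20_7 and 1, E2f8, in VEH tumours. The lowest mean was in WT for 22, in VEH for 13 and in VEH_7 for 1. The mean log2(CPM + 0.5) over the members was 5.20 to 5.71 in M20_7 and 5.09 to 5.63 in VEH_7 libraries. It was 5.64 to 5.97 in MYT and 4.72 to 5.24 in VEH libraries, and 5.66 to 6.04 in SPON and 4.53 to 5.13 in WT libraries. The libraries of MYT and VEH did not overlap in this mean, nor did those of SPON and WT, while the ranges of M20_7 and VEH_7 lay over each other. In bulk tumour RNA, fewer cells of a type and less RNA per cell cannot be told apart.

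**Figure D1:**
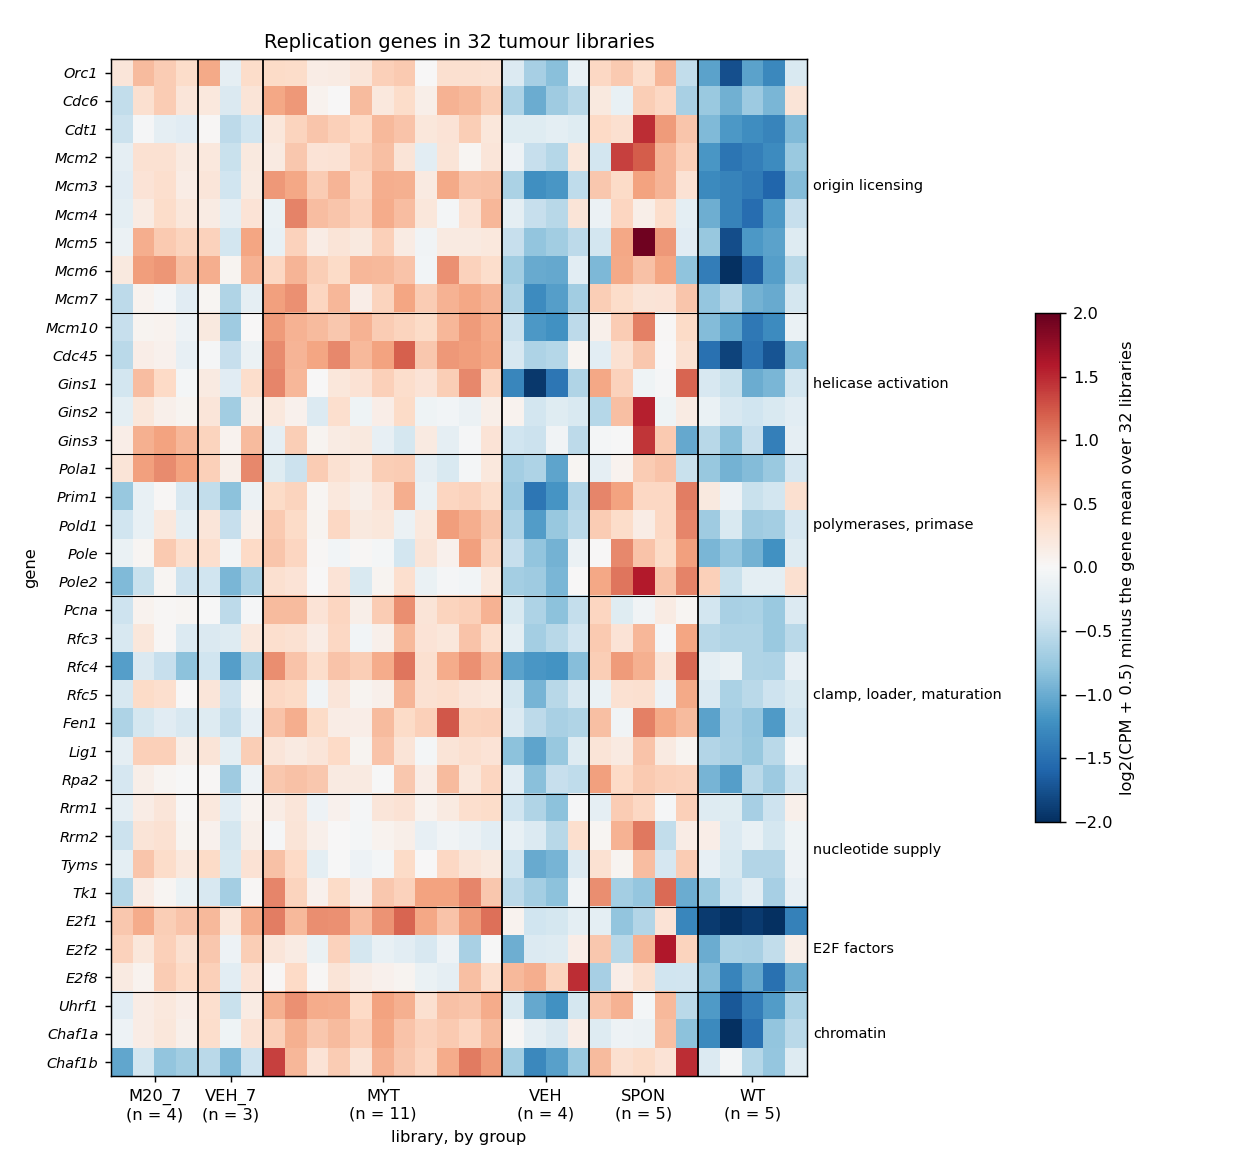
Rows are the 36 genes, grouped by role, and columns the 32 libraries, by group. Colour gives log2(CPM + 0.5) of a library minus the gene's mean over the 32 libraries. WT and VEH libraries are blue in most rows and MYT and SPON libraries red, while the E2f8 row is reddest in VEH libraries.

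RP-6306 against vehicle in the set titled _7 left no replication gene past the test. None of the 36 was called higher or lower in M20_7 than in VEH_7 tumours by edgeR's quasi-likelihood test at an adjusted p under 0.05, where 0 of 16699 genes were called (0% of the genes tested). None of the 36 reached an unadjusted p under 0.05 either, against 1033 of all genes (6.19%). DESeq2 called 60 genes and edgeR without the filter on low counts 6, and no member was among them; limma voom called none. The log2 fold changes of the members, M20_7 minus VEH_7, lay between -0.10 and 0.26 with SEs of 0.13 to 0.26. Their median was 0.09, against 0.01 over all genes tested, and 31 of 36 were above 0. The median was -0.07 without VEH_7 replicate 2, the low library of its group.

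In the set without suffix, 32 of the 36 replication genes were higher in MYT than in VEH tumours and 1, E2f8, was lower. All 9 licensing genes, all 5 of the polymerases and primase, all 7 of the clamp and maturation and all 3 of chromatin assembly rose, as did 4 of 5 helicase activation genes and 3 of 4 nucleotide supply genes. The E2F factors split: E2f1 rose, E2f8 fell, and E2f2 was at 0.24 ± 0.21 on the log2 scale (SE; adjusted p = 0.335, edgeR). Of the 16021 genes tested in this comparison 59.5% were called, 30.5% as higher and 29.0% as lower. The median log2 fold change of the members was 0.85, against 0.04 over all genes, and the values ran from -0.72 to 1.81. For 25 members every MYT library lay above every VEH library, which held for 16.9% of all genes tested. The count stayed between 30 and 33 when any 1 library was left out, and Gins3, Mcm2 and Pola1 were the calls that were lost in this way.

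The markers of other cell types moved with this comparison. All 14 luminal markers were higher in MYT than in VEH tumours, 13 of 14 mesenchymal, 8 of 8 macrophage and 7 of 7 endothelial markers were lower, 2 of 7 basal markers tested were higher and 3 lower, and 1 of 7 T and NK cell markers tested was lower. The summed basal level was 133 to 536 CPM in MYT, against 208 to 2798 CPM in VEH tumours, and the summed macrophage level was 587 to 1268 CPM in MYT, against 2010 to 2745 CPM in VEH tumours. The sources used here do not say whether MYT and VEH tumours are of the same origin, so RP-6306 and kind of tumour cannot be told apart in this comparison. The part of the marker shift in the values of the replication genes was not tested. Between SPON and WT tumours, where the replication genes also differed, 1 of 14 luminal, 2 of 14 mesenchymal and 1 of 8 macrophage markers were higher in SPON, 1 of 8 basal markers was higher and 1 lower, and none of the 7 endothelial markers was called; their part was not tested either.

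The difference between RP-6306 and vehicle tumours in the replication genes was not the same in the sets; it includes any difference in kind of tumour between MYT and VEH. As a test of (MYT minus VEH) less (M20_7 minus VEH_7) in 1 edgeR fit, 27 members were higher and 1, E2f8, was lower, where 17.0% of 17095 genes were called higher and 18.9% lower. The median difference of the members was 0.80 on the log2 scale, against 0.01 over all genes. Of these 28 calls, 17 held without any 1 library; the number called higher was 18 without VEH_7 replicate 3, and the call of E2f8 was lost without VEH_7 replicate 2, M20_7 replicate 3 or VEH replicate 4 (adjusted p 0.0513 to 0.0912).

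The vehicle tumours of the sets were not alike in these genes. In VEH against VEH_7 tumours, 14 members were lower and none higher, with 31.0% of 15555 genes called, 15.6% as lower and 15.4% as higher. The 14 were Orc1, Cdc6, Mcm3, Mcm5, Mcm6, Mcm7, Gins1, Gins3, Pola1, Pold1, Pole, Lig1, Tyms and E2f1. The median log2 fold change of the members was -0.50, against 0.01 over all genes. For 12 members every VEH library lay below every VEH_7 library, which held for 20.7% of all genes tested. The number of members called lower leaned on single libraries. It was 3 without VEH_7 replicate 3, 6 without VEH_7 replicate 1 and 18 without VEH_7 replicate 2. Mcm6, Gins1 and E2f1 were called whichever library was left out. In the same fit 5 of 14 luminal and 5 of 7 basal markers tested were higher, 2 of 14 mesenchymal markers were higher and 6 lower, 4 of 8 macrophage and 3 of 9 T and NK cell and 1 of 2 B and plasma cell markers tested were lower, and none of the 7 endothelial markers was called; their part was not tested. This comparison shares the VEH libraries with MYT against VEH and the VEH_7 libraries with M20_7 against VEH_7, and the difference between the sets uses all 4 groups.

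Among the untreated tumours, 25 of the 36 replication genes were higher in SPON than in WT tumours and none was lower. They were 8 of 9 licensing genes, 3 of 5 helicase activation genes, all 5 of the polymerases and primase, 5 of 7 of the clamp and maturation, 2 of 3 E2F factors and 2 of 3 chromatin genes. None of the 4 nucleotide supply genes passed the test, with log2 fold changes of 0.53 to 0.66 and adjusted p-values of 0.103 to 0.356. Of 15558 genes tested 8.38% were called, 4.52% as higher and 3.86% as lower. All 36 log2 fold changes were above 0, with a median of 1.09 against 0.07 over all genes, and for 23 members every SPON library lay above every WT library, against 4.36% of all genes. The number of calls fell to 13, 13, 12 and 12 without WT replicate 1, 2, 3 and 4, and it was 11 when libraries were scaled by total counts only, which shifted the median of all genes by -0.23; 12 of the 25 calls held without any 1 library.

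**Figure D2:**
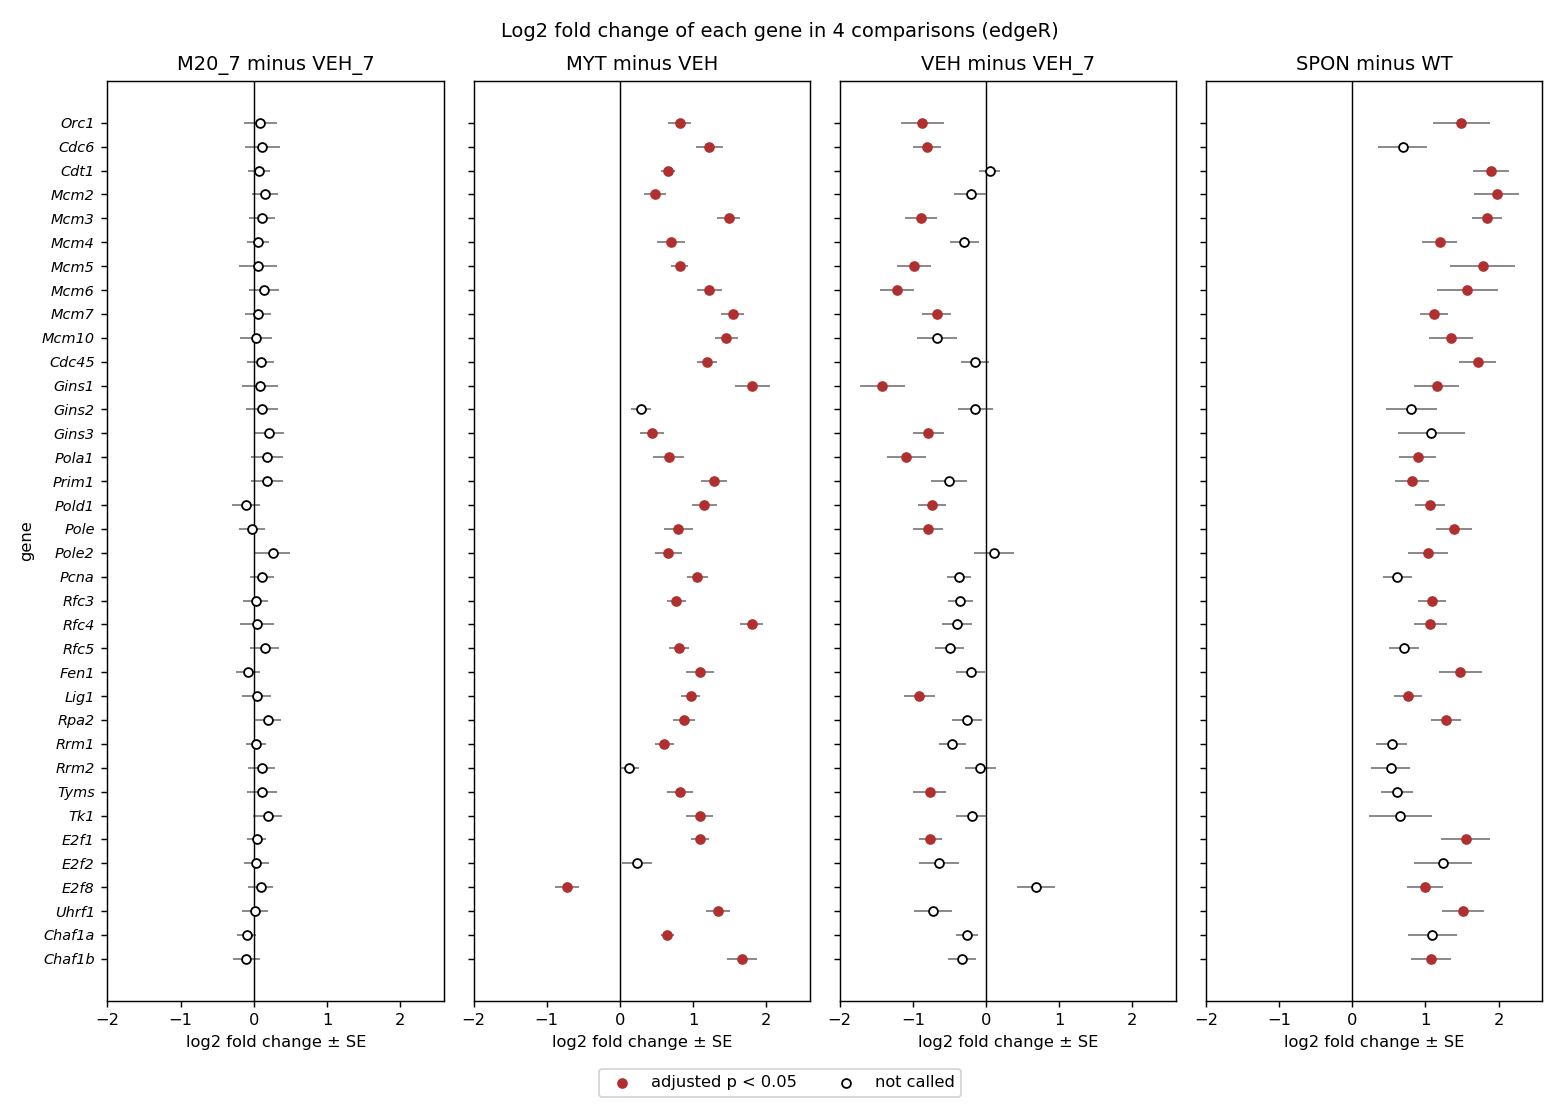
Points are log2 fold changes (horizontal axis) of the 36 genes (vertical axis) in 4 comparisons, with bars of 1 SE, and filled points passed an adjusted p of 0.05 in edgeR. In the M20_7 panel all points are open and lie between -0.10 and 0.26, in the MYT and SPON panels nearly all lie right of 0, and E2f8 is the filled point left of 0 in the MYT panel.

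Among the licensing genes, Mcm7 had the largest and Mcm2 the smallest log2 fold change of MYT against VEH; both code for subunits of the helicase ring. Mcm7 was at 86.8, 132, 123 and 107 CPM in M20_7 tumours, against 129, 82.5 and 111 CPM in VEH_7 tumours. It ranged from 137 to 238 CPM with a median of 201 CPM in MYT tumours, against 82.3, 52.0, 58.1 and 76.9 CPM in VEH tumours. SPON tumours had 176, 161, 149, 152 and 184 CPM, against 73.2, 83.6, 64.9, 61.8 and 97.9 CPM in WT tumours. MYT lay wholly above VEH and SPON wholly above WT, while the _7 groups overlapped. The log2 fold change of Mcm7 was 1.54 ± 0.16 (SE; adjusted p = 4.11e-07, edgeR) in MYT against VEH and 1.11 ± 0.19 (SE; adjusted p = 0.00803, edgeR) in SPON against WT. In VEH against VEH_7 it was -0.67 ± 0.20 (SE; adjusted p = 0.0309, edgeR), a call that was lost without VEH_7 replicate 1 or 3 or VEH replicate 2 or 3 (adjusted p 0.0651 to 0.122).

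Mcm2 was at 82.7, 117, 116 and 107 CPM in M20_7 tumours, against 109, 69.2 and 107 CPM in VEH_7 tumours. It ranged from 80.9 to 143 CPM with a median of 112 CPM in MYT tumours, against 87.4, 68.1, 63.3 and 109.7 CPM in VEH tumours. SPON tumours had 72.6, 243, 217, 151 and 131 CPM, against 41.5, 33.6, 36.2, 39.1 and 56.1 CPM in WT tumours. The MYT and VEH libraries of Mcm2 overlapped through VEH replicates 1 and 4, and SPON was above WT in every library, though SPON replicate 1 was far below the other SPON libraries. Mcm2 rose by 0.48 ± 0.15 (SE; adjusted p = 0.0108, edgeR) in MYT against VEH, a call lost without VEH replicate 2 or 3 (adjusted p = 0.0551 and 0.0585), and by 1.98 ± 0.31 (SE; adjusted p = 0.00533, edgeR) in SPON against WT, the largest log2 fold change of the 36 there.

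The origin-loading factors Cdc6 and Cdt1 and the other ring subunits went the same way in MYT against VEH, by 0.66 (Cdt1) to 1.49 (Mcm3) on the log2 scale, as did Orc1, which codes for the largest subunit of the origin recognition complex, by 0.81 ± 0.16 (SE). Cdt1 was at 76.0, 72.1, 162, 104 and 84.7 CPM in SPON tumours, against 31.1, 25.6, 24.01, 22.8 and 31.0 CPM in WT tumours, a log2 fold change of 1.90 ± 0.25 (SE; adjusted p = 0.00221, edgeR). Mcm5 reached 335 CPM in SPON replicate 3, while SPON replicates 1 and 5, at 66.8 and 73.8 CPM, lay within reach of WT replicate 5 at 71.9 CPM. Its log2 fold change of 1.78 ± 0.44 (SE; adjusted p = 0.0324, edgeR) in SPON against WT was not called without SPON replicate 3 or 4 or any 1 of WT replicates 1 to 4 (adjusted p 0.0530 to 0.0892).

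The 6 ring subunits assemble in equal number, and their RNA levels were compared per length, as CPM per kilobase of exon. By this measure Mcm2 was the lowest of the 6 in every group, at a mean of 15.2 in M20_7 and 13.7 in VEH_7, 16.5 in MYT and 11.8 in VEH, and 23.4 in SPON and 5.94 in WT tumours. Mcm3 was the highest in 5 groups, at 40.2 in M20_7 and 37.1 in VEH_7, 56.0 in MYT and 20.1 in VEH, and 53.1 in SPON tumours, and Mcm7 was the highest in WT tumours at 17.2. The highest subunit was 3.40 times the lowest in MYT and 1.70 times in VEH tumours. This ratio was 2.65 in M20_7 and 2.71 in VEH_7, and 2.27 in SPON and 2.90 in WT tumours. The length used was that of all annotated exons together, 6956 bases for Mcm2 against 3589 (Mcm4) to 4666 (Mcm6) for the others. By mean counts, without length, Mcm2 was the lowest in no group. It was the highest in VEH tumours, at 1184 against 1089 for Mcm3. The ranks and ratios between subunits therefore depend on the length used.

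**Figure D3:**
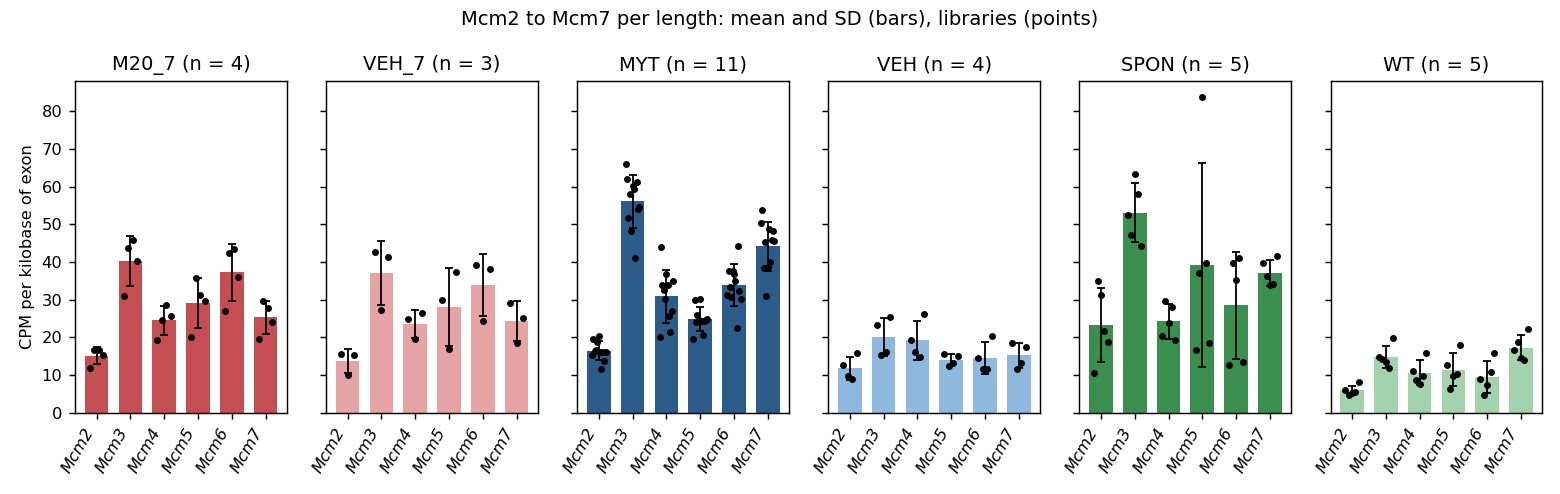
Bars give the group mean of Mcm2 to Mcm7 in CPM per kilobase of exon, whiskers 1 SD and points the libraries, with a panel for each group. Mcm2 is the shortest bar in all 6 panels and Mcm3 the tallest in 5. The length is that of all annotated exons of a gene, which is longest for Mcm2.

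Of the helicase activation genes, Gins1, which codes for a subunit of the GINS complex, had the largest log2 fold change of the 36 in MYT against VEH. Gins1 was at 13.0, 26.4, 22.6 and 16.5 CPM in M20_7 tumours, against 19.3, 14.5 and 21.9 CPM in VEH_7 tumours. It ranged from 17.0 to 33.8 CPM with a median of 23.1 CPM in MYT tumours, against 6.59, 4.11, 5.94 and 11.1 CPM in VEH tumours. SPON tumours had 29.3, 23.5, 15.99, 16.6 and 38.6 CPM, against 13.5, 12.4, 8.26, 8.78 and 13.1 CPM in WT tumours. The _7 groups overlapped, MYT did not overlap VEH, and all SPON libraries were above all WT libraries. The log2 fold change was 1.81 ± 0.24 (SE; adjusted p = 7.65e-06, edgeR) in MYT against VEH and -1.42 ± 0.31 (SE; adjusted p = 0.00889, edgeR) in VEH against VEH_7. In SPON against WT it was 1.15 ± 0.30 (SE; adjusted p = 0.04, edgeR), and this call was lost without SPON replicate 1 or 5 or any 1 WT library (adjusted p 0.0602 to 0.111).

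Gins2, another GINS subunit, did not follow. Gins2 was at 16.6, 22.3, 20.3 and 19.7 CPM in M20_7 tumours, against 22.4, 11.6 and 20.7 CPM in VEH_7 tumours. It ranged from 15.6 to 24.9 CPM with a median of 20.1 CPM in MYT tumours, against 19.8, 14.6, 15.9 and 15.3 CPM in VEH tumours. SPON tumours had 12.6, 29.1, 56.6, 17.9 and 21.4 CPM, against 17.3, 15.2, 14.3, 15.3 and 16.4 CPM in WT tumours. Each pair of groups overlapped, and SPON replicate 3 was by far the highest library. Its log2 fold change was 0.29 ± 0.14 (SE; adjusted p = 0.0768, edgeR) in MYT against VEH and 0.81 ± 0.35 (SE; adjusted p = 0.171, edgeR) in SPON against WT. Exons of Gse1 on the opposite strand cover 67.3% of the Gins2 exon bases, and without a stated strand its reads cannot be told apart from those of Gse1 there.

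Cdc45, whose protein joins the ring with GINS, was called in MYT against VEH, SPON against WT and MYT against SPON. Cdc45 was at 21.1, 33.9, 32.6 and 27.4 CPM in M20_7 tumours, against 30.4, 22.1 and 28.4 CPM in VEH_7 tumours. It ranged from 45.1 to 70.8 CPM with a median of 54.0 CPM in MYT tumours, against 24.7, 19.9, 20.5 and 31.8 CPM in VEH tumours. SPON tumours had 26.5, 38.0, 45.2, 31.0 and 38.1 CPM, against 10.6, 8.18, 10.8, 8.93 and 16.04 CPM in WT tumours. MYT was above VEH and SPON above WT without overlap, and the MYT libraries overlapped only SPON replicate 3. It was higher by 1.19 ± 0.14 (SE; adjusted p = 1.67e-06, edgeR) in MYT against VEH and by 1.71 ± 0.25 (SE; adjusted p = 0.00438, edgeR) in SPON against WT. Mcm10, which helps start the helicase, was also higher, by 1.46 ± 0.15 and 1.35 ± 0.30 (SE) in these comparisons, the second not called without any 1 of WT replicates 1 to 4 (adjusted p 0.0596 to 0.0666), and Gins3 rose by 0.44 ± 0.17 (SE; adjusted p = 0.033, edgeR) in MYT against VEH, a call lost without VEH replicate 1, 2 or 4 or MYT replicate 11 (adjusted p 0.0502 to 0.106).

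Prim1 codes for the catalytic subunit of primase, which lays the RNA primers, and had the largest log2 fold change of its role in MYT against VEH. Prim1 was at 18.9, 29.0, 32.7 and 25.7 CPM in M20_7 tumours, against 22.8, 17.9 and 29.6 CPM in VEH_7 tumours. It ranged from 29.3 to 53.1 CPM with a median of 40.9 CPM in MYT tumours, against 19.3, 11.5, 13.9 and 21.2 CPM in VEH tumours. SPON tumours had 63.8, 56.6, 43.1, 42.8 and 65.5 CPM, against 36.7, 30.01, 23.4, 24.7 and 40.1 CPM in WT tumours. MYT was above VEH and SPON above WT in every library. It rose by 1.29 ± 0.18 (SE; adjusted p = 8.80e-06, edgeR) in MYT against VEH. In SPON against WT it was 0.82 ± 0.23 (SE; adjusted p = 0.0489, edgeR), a call that was lost without any 1 SPON library or any 1 of WT replicates 1 to 4 (adjusted p 0.0507 to 0.135).

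Pole2, the second subunit of polymerase epsilon, had the smallest change of its role. Pole2 was at 6.69, 9.20, 13.1 and 9.40 CPM in M20_7 tumours, against 9.59, 6.54 and 8.03 CPM in VEH_7 tumours. It ranged from 10.3 to 16.2 CPM with a median of 13.2 CPM in MYT tumours, against 7.77, 7.58, 6.49 and 12.9 CPM in VEH tumours. SPON tumours had 22.2, 27.4, 39.4, 19.2 and 25.8 CPM, against 17.9, 9.26, 11.1, 11.1 and 15.98 CPM in WT tumours. VEH replicate 4 lay within the MYT range, and SPON was above both WT and MYT in every library. It was higher by 0.66 ± 0.18 (SE; adjusted p = 0.00407, edgeR) in MYT against VEH and by 1.04 ± 0.27 (SE; adjusted p = 0.039, edgeR) in SPON against WT, the second lost without SPON replicate 3 or 5 or any 1 WT library (adjusted p 0.0533 to 0.111). The catalytic subunits Pola1, Pold1 and Pole rose by 0.67 ± 0.21, 1.15 ± 0.17 and 0.80 ± 0.20 on the log2 scale (SE) in MYT against VEH; Pola1 was not called without VEH replicate 3 (adjusted p = 0.0521).

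Rfc4, a subunit of the complex that loads the PCNA clamp, had the smallest p-value of the members in MYT against VEH. Rfc4 was at 12.4, 22.3, 19.7 and 15.3 CPM in M20_7 tumours, against 20.7, 12.4 and 17.5 CPM in VEH_7 tumours. It ranged from 34.1 to 57.8 CPM with a median of 44.1 CPM in MYT tumours, against 12.7, 11.9, 11.6 and 14.9 CPM in VEH tumours. SPON tumours had 38.7, 49.7, 45.2, 32.5 and 61.2 CPM, against 23.9, 25.0, 17.8, 17.7 and 24.4 CPM in WT tumours. All MYT libraries were above all VEH libraries, whose own values lay close together, and SPON was above WT. The log2 fold change was 1.80 ± 0.15 (SE; adjusted p = 6.06e-08, edgeR) in MYT against VEH and 1.07 ± 0.22 (SE; adjusted p = 0.0178, edgeR) in SPON against WT, the second lost without WT replicate 3 or 4 (adjusted p = 0.0572 and 0.0601).

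Rfc3, of the same loader, changed least of its role in MYT against VEH. Rfc3 was at 44.4, 64.6, 56.5 and 45.5 CPM in M20_7 tumours, against 45.2, 46.1 and 64.4 CPM in VEH_7 tumours. It ranged from 53.1 to 87.1 CPM with a median of 68.4 CPM in MYT tumours, against 48.2, 34.2, 37.5 and 42.1 CPM in VEH tumours. SPON tumours had 79.4, 66.6, 87.4, 54.3 and 95.7 CPM, against 37.4, 36.4, 36.4, 32.9 and 38.0 CPM in WT tumours. Neither MYT and VEH nor SPON and WT overlapped, although MYT and VEH libraries came near each other. Rfc3 was higher by 0.77 ± 0.13 (SE; adjusted p = 7.44e-05, edgeR) in MYT against VEH and by 1.09 ± 0.19 (SE; adjusted p = 0.00878, edgeR) in SPON against WT. Pcna, the clamp, rose by 1.06 ± 0.14 (SE; adjusted p = 6.91e-06, edgeR) in MYT against VEH and was at 0.62 ± 0.19 (SE; adjusted p = 0.0715, edgeR) in SPON against WT. The log2 fold changes of Lig1, which joins nicks, Rpa2, a single-strand binding subunit, and Rfc5 in MYT against VEH were 0.96 ± 0.13, 0.88 ± 0.15 and 0.81 ± 0.14 (SE), all called. Fen1, the flap nuclease, was at 1.09 ± 0.19, but exons of other genes on the opposite strand cover 84.2% of its exon bases.

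Tk1, the thymidine kinase of the salvage route, changed most of the nucleotide supply genes in MYT against VEH. Tk1 was at 53.2, 87.7, 80.9 and 71.7 CPM in M20_7 tumours, against 63.5, 49.1 and 80.2 CPM in VEH_7 tumours. It ranged from 83.6 to 156 CPM with a median of 115 CPM in MYT tumours, against 55.1, 49.2, 44.7 and 75.2 CPM in VEH tumours. SPON tumours had 151, 49.4, 45.8, 174 and 39.7 CPM, against 47.2, 59.6, 68.6, 49.4 and 70.4 CPM in WT tumours. MYT lay above VEH without overlap, while SPON replicates 1 and 4 were far above WT and the other SPON libraries lay within or below the WT range. Tk1 rose by 1.09 ± 0.18 (SE; adjusted p = 7.60e-05, edgeR) in MYT against VEH and was at 0.66 ± 0.43 (SE; adjusted p = 0.356, edgeR) in SPON against WT, where its coefficient of variation over SPON libraries, 70.6%, was the highest of the 36.

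Rrm2, the small subunit of ribonucleotide reductase, changed least. Rrm2 was at 45.8, 73.9, 76.4 and 64.1 CPM in M20_7 tumours, against 65.6, 48.3 and 67.2 CPM in VEH_7 tumours. It ranged from 53.3 to 74.2 CPM with a median of 60.9 CPM in MYT tumours, against 55.8, 51.3, 41.9 and 78.8 CPM in VEH tumours. SPON tumours had 63.4, 101, 129.9, 43.7 and 68.6 CPM, against 67.8, 51.4, 56.2, 48.3 and 58.1 CPM in WT tumours. Every pair of groups overlapped, and the VEH libraries alone spanned the ranges of all groups but SPON. The log2 fold change was 0.13 ± 0.13 (SE; adjusted p = 0.415, edgeR) in MYT against VEH and 0.53 ± 0.27 (SE; adjusted p = 0.229, edgeR) in SPON against WT. Rrm1, the large subunit of the same enzyme, was higher by 0.61 ± 0.13 (SE; adjusted p = 0.000591, edgeR) in MYT against VEH, and Tyms, which makes thymidylate, by 0.82 ± 0.17 (SE; adjusted p = 0.00057, edgeR).

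**Figure D4:**
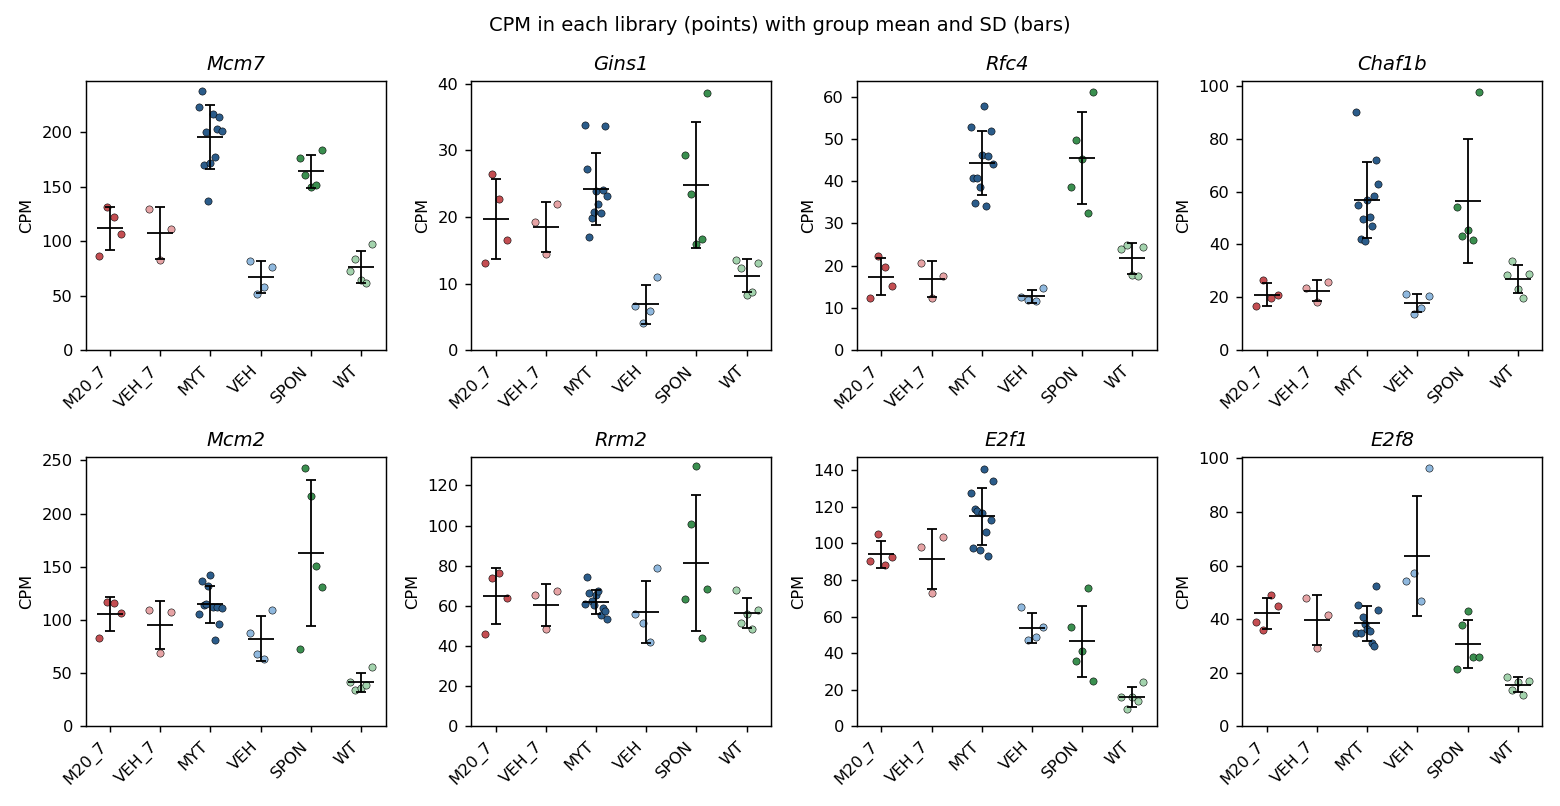
CPM (vertical axis, from 0) of 8 of the genes in each library, by group, with the group mean and 1 SD. MYT points stand clear above VEH points for Mcm7, Gins1, Rfc4, Chaf1b and E2f1, the groups overlap for Mcm2 and Rrm2, and for E2f8 the highest points are those of VEH.

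E2f1, an activating E2F, and E2f8, a repressing one, went opposite ways between MYT and VEH tumours. E2f1 was at 90.5, 105, 88.2 and 92.3 CPM in M20_7 tumours, against 97.8, 73.0 and 104 CPM in VEH_7 tumours. It ranged from 93.0 to 141 CPM with a median of 117 CPM in MYT tumours, against 65.2, 47.1, 48.8 and 54.5 CPM in VEH tumours. SPON tumours had 54.4, 35.9, 41.2, 75.5 and 24.8 CPM, against 16.1, 9.58, 16.2, 13.98 and 24 CPM in WT tumours. E2f1 was higher in every MYT than in every VEH library and in every SPON than in every WT library, and its MYT libraries were also above all SPON libraries. Its log2 fold change was 1.09 ± 0.12 (SE; adjusted p = 1.35e-06, edgeR) in MYT against VEH and -0.76 ± 0.16 (SE; adjusted p = 0.00784, edgeR) in VEH against VEH_7. In SPON against WT it was 1.55 ± 0.34 (SE; adjusted p = 0.0207, edgeR), lost without any 1 of WT replicates 1 to 4 (adjusted p 0.0550 to 0.0635).

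E2f8 was at 39.0, 35.98, 48.8 and 45.05 CPM in M20_7 tumours, against 47.8, 29.3 and 41.5 CPM in VEH_7 tumours. It ranged from 29.9 to 52.3 CPM with a median of 36.5 CPM in MYT tumours, against 54.1, 57.1, 46.8 and 96.4 CPM in VEH tumours. SPON tumours had 21.5, 37.7, 42.9, 25.8 and 26.0 CPM, against 18.5, 13.5, 16.5, 11.8 and 17.0 CPM in WT tumours. VEH held the highest E2f8 libraries of all groups, with VEH replicate 4 at the top, and a single VEH library lay within the MYT range; SPON was above WT throughout. E2f8 fell in MYT against VEH, with a log2 fold change of -0.72 ± 0.16 (SE; adjusted p = 0.00114, edgeR), and this call held without any 1 library. It rose in SPON against WT, by 1.0 ± 0.25 (SE; adjusted p = 0.0327, edgeR), which was not called without SPON replicate 3 or any 1 WT library (adjusted p 0.0558 to 0.0957), and it was at 0.69 ± 0.26 (SE; adjusted p = 0.0732, edgeR) in VEH against VEH_7. E2f2, an activating factor, was at 20.4, 9.29, 22.9, 43.2 and 19.0 CPM in SPON tumours, against 6.73, 8.76, 8.68, 9.69 and 15.1 CPM in WT tumours, and its log2 fold change there was 1.24 ± 0.39 (SE; adjusted p = 0.0741, edgeR).

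The ratio of E2f1 to E2f8 counts does not depend on library scaling; it was chosen after the values of both genes had been seen and is given as a description. It was 2.32, 2.92, 1.81 and 2.05 in M20_7 libraries, against 2.05, 2.49 and 2.50 in VEH_7 libraries. MYT libraries ranged from 2.15 to 3.96 with a median of 3.11, against 1.21, 0.824, 1.04 and 0.565 in VEH libraries. SPON libraries had 2.54, 0.952, 0.962, 2.93 and 0.954, against 0.869, 0.712, 0.986, 1.18 and 1.41 in WT libraries. MYT and the _7 groups had more E2f1 than E2f8 counts in every library, VEH and WT libraries lay around 1, and SPON libraries fell into a pair above 2.5 and another 3 just under 1.

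**Figure D5:**
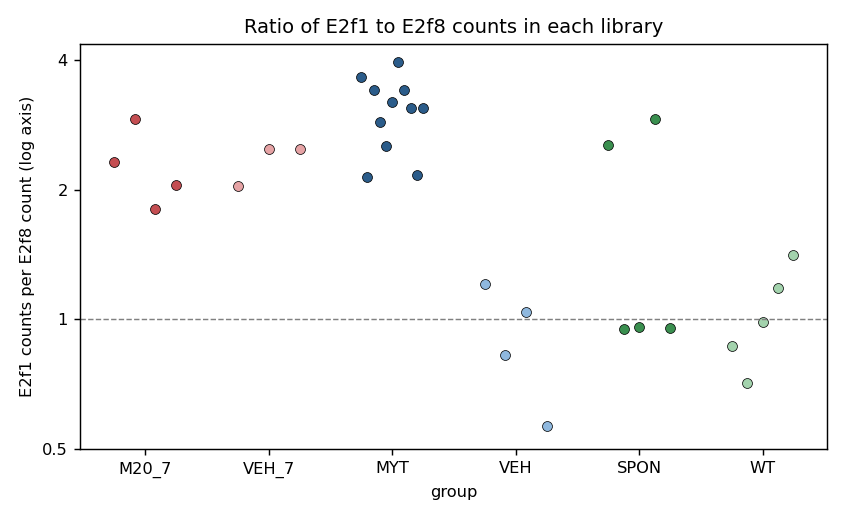
Points are libraries and the vertical axis, on a log scale, is the number of E2f1 counts per E2f8 count; the dashed line marks 1. MYT libraries lie between 2.15 and 3.96 and VEH libraries between 0.565 and 1.21.

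Chaf1b and Chaf1a code for subunits of CAF-1, which places histones on new DNA, and had the largest and the smallest change of their role in MYT against VEH. Chaf1b was at 16.6, 26.8, 19.8 and 21.1 CPM in M20_7 tumours, against 23.6, 18.4 and 25.9 CPM in VEH_7 tumours. It ranged from 41.4 to 90.2 CPM with a median of 55.1 CPM in MYT tumours, against 21.3, 13.9, 16.1 and 20.5 CPM in VEH tumours. SPON tumours had 54.3, 43.3, 45.5, 41.8 and 97.5 CPM, against 28.6, 33.6, 23.2, 20.0 and 28.7 CPM in WT tumours. MYT was above every library of VEH and of the _7 groups, SPON was above WT, and SPON replicate 5 was well above the other SPON libraries. The log2 fold change of Chaf1b was 1.67 ± 0.20 (SE; adjusted p = 2.51e-06, edgeR) in MYT against VEH and 1.08 ± 0.28 (SE; adjusted p = 0.0372, edgeR) in SPON against WT, the second lost without SPON replicate 5 or any 1 WT library (adjusted p 0.0521 to 0.102).

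Chaf1a was at 56.3, 66.9, 70.4 and 64.5 CPM in M20_7 tumours, against 76.8, 56.6 and 73.8 CPM in VEH_7 tumours. It ranged from 81.1 to 104 CPM with a median of 88.1 CPM in MYT tumours, against 61.3, 53.1, 49.0 and 65.8 CPM in VEH tumours. SPON tumours had 50.1, 56.3, 55.7, 91.3 and 34.1 CPM, against 24.7, 14.1, 21.1, 34.7 and 41.3 CPM in WT tumours. The narrow MYT range lay above VEH, while SPON and WT overlapped through SPON replicate 5 and WT replicates 4 and 5. Chaf1a was higher by 0.65 ± 0.10 (SE; adjusted p = 1.93e-05, edgeR) in MYT against VEH and was at 1.09 ± 0.33 (SE; adjusted p = 0.0642, edgeR) in SPON against WT; exons of Ubxn6 on the opposite strand cover 52.5% of its exon bases. Uhrf1, which guides maintenance of DNA methylation behind the fork, rose by 1.34 ± 0.16 (SE; adjusted p = 2.41e-06, edgeR) in MYT against VEH and by 1.51 ± 0.29 (SE; adjusted p = 0.0123, edgeR) in SPON against WT.

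MYT and SPON tumours, the groups with the highest levels, differed in 9 of the 36 genes, with 3 higher and 6 lower in MYT, where 28.5% of 15695 genes were called (9.46% higher, 19.1% lower). Members were thus called no more often than genes at large. The members' median log2 fold change was -0.11, against -0.08 over all genes. The higher ones were E2f1 at 1.23 ± 0.20 (SE; adjusted p = 0.000326, edgeR), Chaf1a at 0.56 ± 0.16 (SE; adjusted p = 0.0146, edgeR) and Cdc45 at 0.55 ± 0.14 (SE; adjusted p = 0.00714, edgeR). Pole2 was lower, at -1.05 ± 0.17 (SE; adjusted p = 0.000283, edgeR), and these 4 calls held without any 1 library. E2f2, at -0.87 ± 0.25, was not called without SPON replicate 4 (adjusted p = 0.106), and Prim1, at -0.52 ± 0.15, not without SPON replicate 5 (adjusted p = 0.0739). Cdt1, Mcm2 and Mcm5 were lower by 0.45 ± 0.16, 0.59 ± 0.20 and 0.74 ± 0.26 on the log2 scale, but each call was lost without any 1 of 12 to 14 of the 16 libraries. The number of members called lower was 3 without any 1 of MYT replicates 1, 3, 4, 5, 8, 9, 10 and 11 and of SPON replicates 3 and 5. With scaling by total counts only, which shifted the median of all genes by 0.24, 5 members were higher and 1 lower and the members' median was 0.12, so the direction over the list depended on the scaling. Of the markers, 6 of 8 of macrophages were higher in MYT than in SPON tumours, with a summed level of 587 to 1268 CPM in MYT, against 287 to 708 CPM in SPON tumours. Of the luminal markers 1 of 14 was higher and 2 lower, 1 of 14 mesenchymal markers was higher, the single B and plasma cell and the single adipocyte marker tested were lower, and no basal, endothelial or T and NK cell marker was called; their part was not tested. This comparison shares its libraries with MYT against VEH and with SPON against WT.

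Other genes of the pathway, from a list of 60 that excludes the 36, were counted in the same fits. In MYT against VEH 40 were higher and 9 lower, in SPON against WT 20 were higher and none lower, and in M20_7 against VEH_7 none was called. In VEH against VEH_7 1 was higher and 24 lower. Over all genes tested, 30.5% were called higher and 29.0% lower in MYT against VEH. These shares were 4.52% and 3.86% in SPON against WT, and 15.4% and 15.6% in VEH against VEH_7. The 3 largest changes among those called in MYT against VEH were Tfdp2, Ticrr and Gmnn. Tfdp2 codes for DP2, a DP partner of factors such as E2F1 to E2F3. Its level ranged from 0.821 to 3.99 CPM with a median of 1.51 CPM in MYT tumours, against 19.8, 32.99, 25.8 and 27.5 CPM in VEH tumours. It was at 31.3, 27.6, 36.02 and 31.7 CPM in M20_7, 32.6, 35.0 and 36.7 CPM in VEH_7, 31.6, 90.2, 29.5, 44.5 and 36.8 CPM in SPON and 37.6, 37.2, 40.1, 50.8 and 41.0 CPM in WT tumours. MYT libraries were therefore below every other library, and the log2 fold change against VEH was -3.86 ± 0.31 (SE; adjusted p = 3.12e-08, edgeR). Ticrr, which helps load CDC45, rose by 2.01 ± 0.17 (SE; adjusted p = 6.67e-08, edgeR), and Gmnn, whose protein geminin inhibits CDT1, by 1.86 ± 0.20 (SE; adjusted p = 6.27e-07, edgeR).

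The other 8 called lower in MYT against VEH were the cyclin E genes Ccne1 and Ccne2, the repressor-type factors E2f4 and E2f6, Orc3, Pold4, Tipin and Tfdp1. Ccne1 ranged from 2.52 to 7.51 CPM with a median of 5.69 CPM in MYT tumours, against 15.2, 9.89, 10.4 and 17.6 CPM in VEH tumours, without overlap, a log2 fold change of -1.30 ± 0.23 (SE; adjusted p = 0.000119, edgeR). Those of E2f4, E2f6, Orc3 and Pold4 were -0.50 ± 0.10, -0.85 ± 0.16, -0.86 ± 0.12 and -1.04 ± 0.15 (SE), and all 4 held without any 1 library. Tfdp1, which codes for DP1, was at 113, 106, 92.7 and 447 CPM in VEH tumours, and its log2 fold change of -0.87 ± 0.28 (SE; adjusted p = 0.0138, edgeR) was -0.0033 without VEH replicate 4 (adjusted p = 0.981). Ccne2, at -0.72 ± 0.23, was not called without VEH replicate 4 (-0.46, adjusted p = 0.122), and Tipin, at -0.33 ± 0.13, not without VEH replicate 1, 3 or 4 (adjusted p 0.0526 to 0.105).

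Genes of G2 and mitosis, such as Mki67, Cdk1 and Plk1, were counted beside them from a list of 20. In MYT against VEH 18 were higher and none lower, with a median log2 fold change of 1.18, and in SPON against WT 14 were higher and none lower, with a median of 1.26. None was called in M20_7 against VEH_7, and 9 were lower and none higher in VEH against VEH_7. In MYT against SPON none was higher and 2 were lower, where 9.46% of all genes tested were called higher and 19.1% lower. The shares of all genes called higher were 30.5% in MYT against VEH and 4.52% in SPON against WT. In VEH against VEH_7, 15.6% of all genes were called lower.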

How the data were processed

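Per the labels, total RNA from tumours was extracted with Trizol and sequenced by a commercial provider. STAR 2.7.10a, HTSeq, edgeR and the build GRCm38 are named in the submitters' processing notes; the kit, strandedness and annotation release are not given in the sources used here. The authors deposited a table of read counts and a table of log2 CPM values. All results come from the deposited counts. The deposited log2 values differed from those recomputed with TMM and a prior count of 2 by 0.0576.

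Each comparison was fitted on its own groups with R 4.3.3 and edgeR 4.0.16, using filterByExpr, TMM factors, glmQLFit and glmQLFTest, and adjusted by Benjamini-Hochberg over all genes tested; a gene was called at an adjusted p under 0.05. SEs were taken from the F statistic. CPM used TMM factors over the 32 libraries. Lengths and overlaps came from GENCODE M21. Replicate numbers follow accession order and pair nothing. All 90 pairs of libraries within groups differed beyond sampling noise (chi-square per degree of freedom of at least 16.12). The script was tested on simulated data. Alternatives were DESeq2 size factors, total counts only, no filter, DESeq2 1.42.0, limma 3.58.1 voom without and with quality weights, 1 fit over 32 libraries and each library left out. Rows without a symbol held 0.0482% of the counts.

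The members, lists and alternatives were chosen with earlier results of these data known. All 36 members are given. Those with the largest and smallest log2 fold change of MYT against VEH in each role have their values by library. So do those called against the main direction in any comparison. For MYT libraries only the lowest, median and highest values of these genes are given. Of the 60 other pathway genes, the 3 largest called changes of MYT against VEH and those called lower are named. The SPON and WT values of Cdt1, Mcm5 and E2f2 were chosen after they were seen.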

Additional observations from a re-analysis of the deposited data

Results flagged for a closer look

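In 7 of the 144 combinations of gene and group with 4 to 10 libraries, a single library was marked as an outlier relative to the spread of its group. Chance would mark about 1 in 20 such groups if they were independent. Genes of the same library are not independent, so whether chance gave this number was not tested. WT replicate 5 was the highest of its group for 26 members, and M20_7 replicate 1 the lowest of its group for 33. WT replicate 5 was high for 3 genes, Cdc6 at 23.1 CPM where the next WT library had 11.4 CPM, Pola1 at 25.2 CPM (next 18.8) and Lig1 at 70.0 CPM (next 49.9). Cdt1 was at 50.5 CPM in VEH replicate 3, in a group whose other libraries spanned 48.6 to 48.8 CPM. Pcna was at 101.4 CPM in M20_7 replicate 1, below the next library at 138 CPM. Rpa2 was at 71.0 CPM in SPON replicate 1 (next 58.0), and Chaf1b at 97.5 CPM in SPON replicate 5 (next 54.3).

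For 28 members the difference between RP-6306 and vehicle tumours was not the same in the sets, by edgeR's test of (MYT minus VEH) less (M20_7 minus VEH_7), on the log2 scale. Over all 17095 genes tested, 17.0% were called higher and 18.9% lower. Of the 28 calls, 17 held without any 1 library and 11 did not. Those lost most often were Tyms, without any 1 of 13 of the 22 libraries, and Orc1, Pole and Rfc5, without any 1 of 6. Among licensing genes it was 0.74 for Orc1, 1.11 for Cdc6, 0.60 for Cdt1, 1.38 for Mcm3, 0.77 for Mcm5, 1.09 for Mcm6 and 1.49 for Mcm7. Helicase activation genes had 1.43 for Mcm10, 1.10 for Cdc45 and 1.73 for Gins1, and polymerases and primase 1.11 for Prim1, 1.27 for Pold1 and 0.83 for Pole. Clamp, loader and maturation genes had 0.95 for Pcna, 0.75 for Rfc3, 1.76 for Rfc4, 0.67 for Rfc5, 1.18 for Fen1, 0.93 for Lig1 and 0.69 for Rpa2. Nucleotide supply genes had 0.58 for Rrm1, 0.72 for Tyms and 0.91 for Tk1, and chromatin genes 1.34 for Uhrf1, 0.76 for Chaf1a and 1.78 for Chaf1b. E2f1 had 1.06 and E2f8 -0.81, the only one below 0. MYT and VEH tumours also differ in marker levels, and the sets in depth; kind of tumour and RP-6306 cannot be told apart between MYT and VEH.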

How the results depend on the processing

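No paired analysis was possible because the labels give no pairing of tumours. In MYT against VEH the members' counts, 30 to 33 higher and 1 lower, kept within 1.5 times under all 22 alternatives. In M20_7 against VEH_7 no alternative called a member, while 60 genes were called by DESeq2 and 6 without the filter, against 0. In the difference between the sets, 1 fit over 32 libraries called 3501 genes and 16 members higher, against 6151 and 27; without 1 library 18 to 28 were higher and 0 to 1 lower. In SPON against WT, 11 members were higher with total counts only, against 25, and DESeq2 called 2857 genes and 1 fit over 32 libraries 5472, against 1303; without 1 library 12 to 24 members and 506 to 1887 genes were called. The share of calls that were higher there was 54.0%, and 24.6% with total counts only and 42.1% with limma voom. In VEH against VEH_7, 1 fit over 32 libraries called 2455 genes, against 4817, and 1 member was higher without the filter and with DESeq2, against 0; without 1 library 3 to 18 members were lower and 0 to 1 higher. In MYT against SPON, total counts only gave 5 members higher and 1 lower, against 3 and 6, and 3 were lower without the filter, 2 with limma voom and 1 with quality weights, which called 2137 genes, against 4480; without 1 library 3 to 9 were lower. The share of calls higher was 33.1%, 59.9% with total counts only, 48.9% with limma voom and 43.2% without SPON replicate 4. No called log2 fold change of a member reversed in any of these fits. The causes were not tested. The E2F share of member promoters was 28.1% before the start only (all genes 2.16%) and 25.0% on the gene strand only (1.38%). Depth was lower outside the _7 set, and M20_7 against VEH_7 has 4 and 3 libraries.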

Other observations

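Ribonucleotide reductase joins a large subunit, coded by Rrm1, to a small one, coded by Rrm2, and the ratio of their counts within a library does not depend on library scaling. It was picked after the values had been seen and is given without a test. MYT libraries had 1.89 to 3.23 Rrm1 counts per Rrm2 count, with a median of 2.44, against 1.82, 1.72, 1.81 and 1.68 in VEH libraries, so that the groups did not overlap. It was 2.57, 2.01, 2.07 and 2.12 in M20_7, against 2.37, 2.38 and 2.09 in VEH_7 libraries. SPON libraries had 1.85, 1.88, 1.37, 3.01 and 2.72, against 1.65, 2.19, 1.49, 2.07 and 2.48 in WT libraries, which overlapped.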
